A study of Brassica rapa with 38 samples.

Results

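The genes of chromosome A02 of Brassica rapa (Chinese cabbage) were examined for how far each followed a chromosome-wide rise in RNA seen in 2 of the 3 autotetraploid libraries. The series holds 46479 gene models on 10 chromosomes, and 4708 of them lie on A02. Members were the A02 gene models with a TPM of at least 1 in all 8 RNA-seq libraries and a mean of at most 500, where TPM is a gene's share of all transcripts in a library, in parts of 1000000. That left 1999 members, 42.5% of the A02 gene models. Of the others, 1111 were listed at 0 in all 8 libraries, 1122 were above 0 somewhere but under 1 throughout, 455 reached 1 in some libraries only, and 21 had a mean above 500.

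The libraries came from young inner leaves of greenhouse plants taken 60 days after sowing, at the stage when heads begin to form. The 3 monoploid libraries (M1, M2 and M3) are of plants regenerated from cultured microspores of the inbred line 85-1, with a single chromosome set. Colchicine treatment of the monoploid gave the diploid (D1 and D2), and colchicine treatment of the diploid gave the autotetraploid (T1, T2 and T3), so all libraries share 1 genotype and all plants were multiplied by tissue culture. The design calls the libraries biological replicates, but whether each came from separate plants is not given in the sources used here, and p-values then measure only the spread between these libraries. T1 and T3 were set against T2, D1 and D2 because the A02 medians of these very libraries differed, not because a label separates them. The differences along that contrast are therefore given as a description, without a test. The tables rest on 5.86 to 8.06 Gb of aligned bases per library, with 6.95 Gb in T1 and 6.48 Gb in T3, inside the range of D1, D2 and T2. No chromosome or DNA copy was counted in these plants here, so the word copy below refers to arithmetic only.

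In plants that carry an additional copy of 1 chromosome, the RNA of its genes commonly rises in step with the copies, which is called a dosage effect. A gene whose RNA stays near the level of balanced plants is called compensated, and a gene can also move beyond its dosage or against it. Newly made autotetraploids are known to lose or gain single chromosomes, because groups of homologous chromosomes do not always separate evenly in meiosis.

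The A02 genes stood higher in T1 and T3 along the whole chromosome, by about the size that 1 copy added to 4 would give. Each gene's log2 TPM was first set relative to the genes of A01, A03, A05, A06, A07, A08 and A10 in the same library. On that scale the median A02 member lay 0.32 above the mean of T2, D1 and D2 in T1 and 0.31 above it in T3. In T2, D1 and D2 themselves the median was -0.0035, 0.0006 and 0.0087, and in M1, M2 and M3 it was 0.014, 0.0032 and 0.028. T1 and T3 were thus apart from all 6 other libraries, including the monoploid ones. The monoploid libraries were outside the contrast, but T1 and T3 were chosen by these same medians, so this order is no separate evidence. No median of the 7 reference chromosomes was farther from 0 than 0.036 in any library. Their joint median is 0 by the centring, so only how far these chromosomes differ from each other can be read. In 2 libraries a further chromosome stood apart: the median of A09 was 0.32 in T1, and that of A04 was 0.22 in T2 against -0.12 to -0.096 in the other libraries. T2 is part of the mean subtracted here, so a high T2 by itself puts the other libraries below 0 on A04. Against the mean of D1, D2, T1 and T3, the A04 median in T2 was 0.32.

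**Figure D1:**
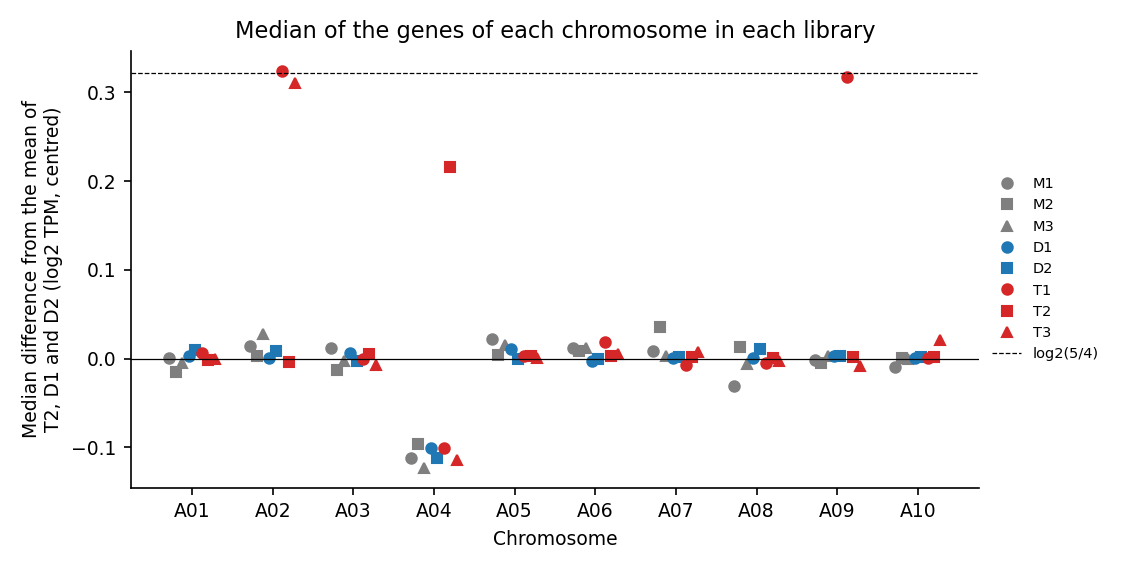
Median over the genes of each chromosome of the centred log2 TPM minus its mean in T2, D1 and D2 (y axis) for the 10 chromosomes (x axis), with 1 point per library: monoploid grey, diploid blue, tetraploid red, replicates 1, 2 and 3 as circles, squares and triangles. A02 is at 0.32 in T1 and 0.31 in T3 and within 0.028 of 0 in the 6 other libraries; the dashed line is log2(5/4).

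The summed RNA of the members showed the same order. The members' TPM added up to 12.0%, 12.2% and 11.9% of that of the reference genes in M1, M2 and M3, and to 12.5% in D1, 12.6% in D2 and 12.5% in T2. In T1 and T3 it reached 15.5% and 15.3%, which is 1.24 and 1.23 times the mean of D1, D2 and T2. The 2 raised libraries did not overlap with the 6 others. These sums use the values by which T1 and T3 were chosen, so their order is no separate evidence.

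The shift of a gene was taken as its mean in T1 and T3 minus its mean in T2, D1 and D2, in log2 units after centring. Over the 1999 members the median shift was 0.32 (SD over genes 0.29), a level 1.25 times as high, and its interquartile range was 0.20 to 0.46. The shift was above 0 in 92.3% of the members. The 15089 genes of the reference chromosomes that passed the same filter had a median of 0.0005 with an SD of 0.27, and 50.1% of them were above 0. The A02 distribution was thus moved as a whole and was about as wide as that of the reference chromosomes. The centring puts the median of the latter near 0, so their position is not a result.

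**Figure D2:**
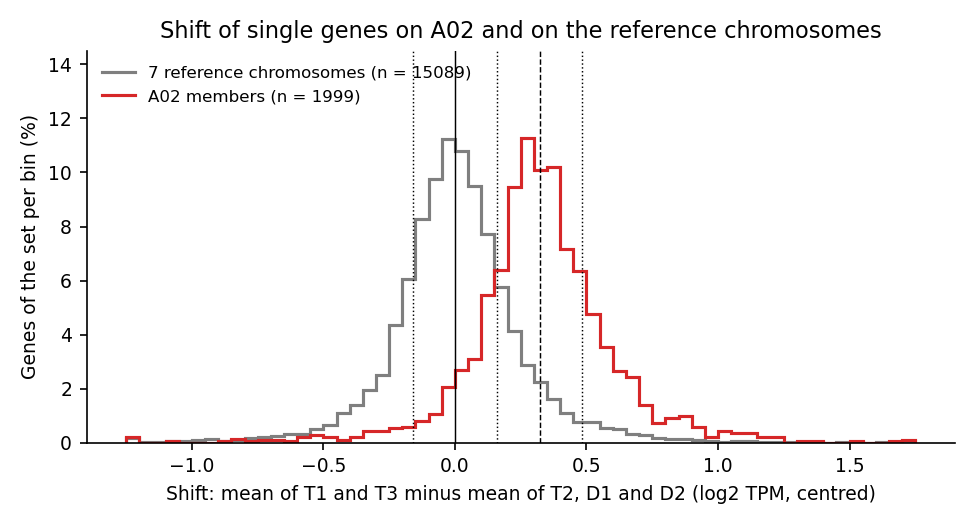
Distribution of the shift, in log2 units (x axis), as the percentage of genes per bin (y axis), for 1999 A02 members (red) and 15089 genes of 7 reference chromosomes (grey). The solid line is 0, the dashed line log2(5/4) and the dotted lines the class limits at -0.161, 0.161 and 0.483; 5 members and 31 reference genes beyond the ends of the axis are counted in the end bins.

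To sort the genes, log2(5/4), or 0.322, was used as a reference step, and members within 0.161 of it were called near the step. Members between -0.161 and 0.161 were called compensated, those above 0.483 beyond the step, and those at or below -0.161 lower. Near the step were 1157 members (57.9%), 435 were beyond it (21.8%), 335 were compensated (16.8%) and 72 were lower (3.6%). When the genes of the reference chromosomes were sorted around 0 with bands of the same widths, the corresponding shares were 60.1%, 20.6%, 16.4% and 2.87%. The share of A02 genes that would be named compensated was therefore close to the share that the same band takes of genes on the reference chromosomes.

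The limits between the classes cut through a continuous range. On either side of the lower limit of the near-step band lay BRA02G0022304 at 0.162 and BRA02G0021557 at 0.160. At the upper limit lay BRA02G0020001 at 0.483 and BRA02G0023469 at 0.482. BRA02G0022880 at -0.160 and BRA02G0020046 at -0.162 bordered the limit between compensated and lower. At the TPM floor, BRA02G0021814 passed with a lowest value of 1.0019 in M2, whereas BRA02G0020306 did not, with 0.99984 in M1.

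In 1160 members (58.0%) both T1 and T3 lay above T2, D1 and D2, whereas this order was found in 16.4% of all 21630 genes that passed the filter and in 10.8% of the reference genes. In 25 members (1.25%) both lay below the 3 libraries, against 9.35% of all genes. In 581 members (29.1%) only 1 of T1 and T3 lay above, beside 34.2% of all genes and 32.1% of the reference genes. In 258 members (12.9%) neither did, beside 49.5% of all genes and 57.1% of the reference genes. In 178 members (8.90%) T1 and T3 both fell inside the range of T2, D1 and D2, which was the case for 25.8% of the reference genes. These counts follow from the contrast by which the chromosome was chosen and are not evidence for it.

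T1 and T3 often put a gene into different classes. Sorted by each library alone, 564 members were near the step in both, 222 beyond it in both, 99 compensated in both and 34 lower in both. Together these are 46.0% of the members, and 45.5% of the reference genes kept their class in the same way around 0. Compensated in both libraries were 4.95% of the members and 4.96% of the reference genes. In 25 members T1 was in the lower class and T3 beyond the step, and in 18 the order was the opposite.

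Because the shift of every member uses the same 5 libraries, its spread was also read in pairs of libraries that share none. The difference T1 minus D1 was set against T3 minus D2, and both had a median of 0.31 over the members. Across genes, which are not independent replicates, the 2 differences had a Pearson correlation of 0.30 and a Spearman correlation of 0.24 on A02 (n = 1999), and of 0.23 and 0.22 on the reference chromosomes (n = 15089). With the diploid libraries exchanged, T1 minus D2 against T3 minus D1, the correlations were 0.03 and -0.05 on A02 and 0.02 and -0.05 on the reference chromosomes. How far a gene's distance from the chromosome's median repeated thus depended on which diploid library was paired with which tetraploid library, on A02 and elsewhere alike.

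Members that were sorted in 1 pair and read in the other moved towards the median of the chromosome. With correlations this low, a move of this kind follows from the sorting itself. The 397 members that were compensated by T1 minus D1, with a median of 0.05, had a median of 0.27 by T3 minus D2. The 569 members that were beyond the step went from 0.65 to 0.41, and the 146 that were lower went from -0.40 to 0.16. The 887 near the step stayed at 0.31. Under the exchanged pairing the compensated members read 0.35 (n = 400), those beyond the step 0.28 (n = 537) and the lower ones 0.32 (n = 175), all near the step. On the reference chromosomes the outer classes likewise moved towards 0, for example from 0.33 to 0.09 in the 3956 genes of the highest class and from -0.27 to -0.04 in the 3102 genes of the class below the middle.

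Expression level changed the spread of the shift far more than its median. In the 5 equal groups of members by mean TPM, with limits at 5.42, 9.84, 17.3 and 36.0, the median shift was 0.36, 0.33, 0.31, 0.32 and 0.31 from the lowest to the highest. The interquartile range narrowed from 0.41 in the lowest group to 0.28, 0.25, 0.21 and 0.20 in the next. The share near the step accordingly rose from 40.5% to 54.3%, 59.1%, 67.5% and 68.0%, while the share beyond it fell from 33.3% to 14.3%.

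The genes of the reference chromosomes in the same TPM ranges showed the same narrowing around 0, with 43.3%, 56.9%, 63.9%, 68.6% and 66.5% inside the middle band. The difference between the medians of A02 and the reference genes was 0.34 in the lowest group and between 0.31 and 0.32 in the 4 others. Over all members the Spearman correlation of the shift with mean TPM was -0.06, and it was -0.02 over the reference genes. As the tables hold no counts per gene, the part of counting error in the wider spread of weakly expressed genes was not tested.

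**Figure D3:**
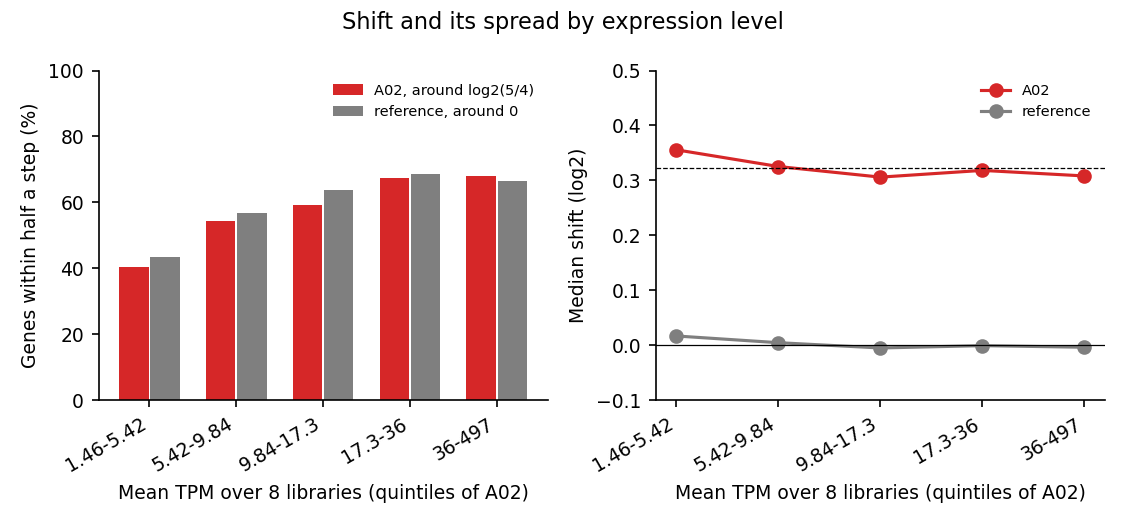
Left, percentage of genes within 0.161 of log2(5/4) for A02 members (red) and of 0 for reference genes (grey); right, their median shift in log2 units, in 5 groups by mean TPM over the 8 libraries (x axis, limits from the A02 members). The share rises from 40.5% to 68.0% on A02 and from 43.3% to 66.5% on the reference chromosomes, while the A02 median stays between 0.31 and 0.36; the dashed line is log2(5/4).

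The monoploid libraries gave a measure of variability that the contrast did not use. Members were split into 4 equal groups by the SD of their log2 values among M1, M2 and M3. Near the step were 68.4%, 62.3%, 56.0% and 44.8% from the least to the most variable group, beside 71.6%, 65.1%, 57.0% and 45.0% of reference genes near 0. T1 and T3 were both above T2, D1 and D2 in 75% of the least variable members and in 35.2% of the most variable. The lower class had the highest median SD among monoploid libraries, at 0.38, against 0.23 in the compensated class, 0.18 near the step and 0.23 beyond it. The corresponding reference classes had 0.44, 0.23, 0.17 and 0.23.

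The classes also differed in level and length, again as on the reference chromosomes. The median of the members' mean TPM was 15.8 near the step, 11.1 in the compensated class, 8.93 beyond the step and 8.10 in the lower class. The median span of the gene models, introns included, was 1210 bp in the lower class, 1511 bp in the compensated class, 1865 bp near the step and 1955 bp beyond it. In 4 equal groups by span, the median shift rose from 0.27 in the shortest members to 0.31, 0.32 and 0.36 in the longest. Reference genes of the same spans went from -0.04 to -0.01, 0.01 and 0.03, so that the difference between both sets was between 0.31 and 0.33 in all 4 groups. The Spearman correlation of shift and span was 0.14 on A02 and 0.13 on the reference chromosomes. Span is what the gene models give, and a cause for its relation to the shift was not tested.

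At the scale of 50 members the rise was present along A02 wherever members lie. In 39 windows of consecutive members, 50 in each but the last, the median shift ranged from 0.27 to 0.40. T1 alone ranged from 0.26 to 0.40 and T3 alone from 0.19 to 0.38, while T2, D1 and D2 stayed between -0.09 and 0.08 in all windows. The raised and the other libraries did not overlap in any window. Over the whole chromosome such a gap follows from the choice of T1 and T3. T2, D1 and D2 were also set against their own mean, so they lie near 0. The lowest window ran from 9317545 to 10125241 and the highest from 4460543 to 5008938 on A02, in the coordinates of the deposited tables.

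By comparison, 297 of 299 windows of the same size on the reference chromosomes had medians between -0.09 and 0.11. The 2 others, both on A06, had medians of 0.50 and 0.37.

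Larger divisions of the chromosome gave the same level. Members spanned positions 9999 to 38356216, with a gap of 6.8 Mb without members between 19584755 and 26384283. The 1362 members before the gap and the 637 after it both had a median shift of 0.32. In bins of 5 Mb the median was between 0.29 and 0.33, and the share near the step was lowest from 35 to 40 Mb, at 51.2%, and highest from 15 to 20 Mb, at 64.1%. Members on the plus strand (1014) had a median of 0.31 and those on the minus strand (985) of 0.34.

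**Figure D4:**
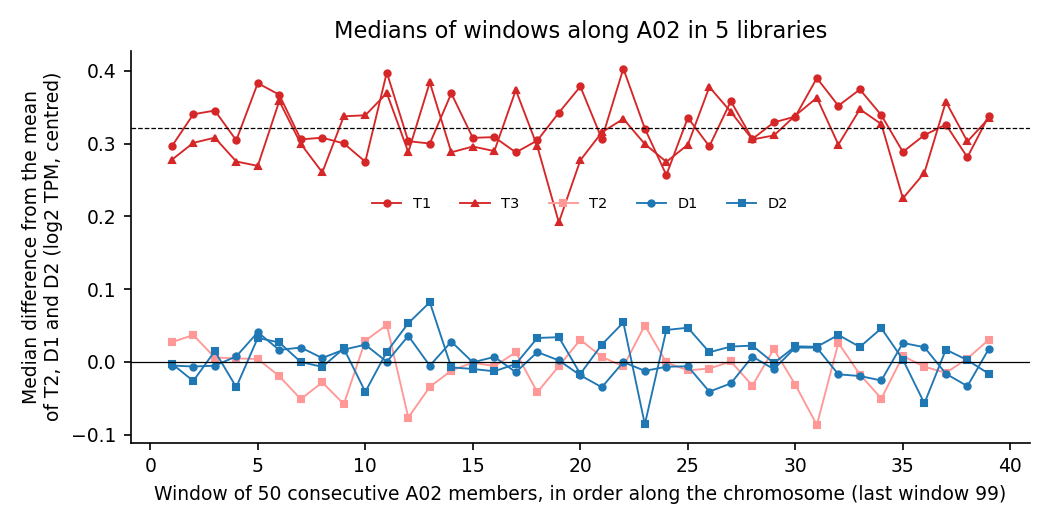
Median over windows of 50 consecutive members (x axis, window number along A02) of the centred log2 TPM minus its mean in T2, D1 and D2 (y axis). T1 and T3 (dark red) lie between 0.19 and 0.40 in all 39 windows, and T2 (light red) and D1 and D2 (blue) between -0.09 and 0.08; the dashed line is log2(5/4).

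Neighbouring members had little in common beyond the chromosome's level. The correlation of the shifts of adjacent members was 0.03 over 1998 pairs, and 0.06 on the reference chromosomes. The longest run of members under 0.161 held 5 genes between 195041 and 245992, with shifts of -0.09 in BRA02G0024109, 0.15 in BRA02G0024105, -0.50 in BRA02G0024100, 0.10 in BRA02G0024098 and -0.33 in BRA02G0024097. Only the third and the fifth of them were in the lower class.

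The longest run beyond the step held 4 genes on the minus strand between 35552437 and 35599562. In BRA02G0019939 the TPM was 36.3 in D1, 24.9 in D2, 98.3 in T1, 59.9 in T2 and 61.4 in T3, with a shift of 1.12. BRA02G0019937 had 33.7 in D1, 13.0 in D2, 71.4 in T1, 57.1 in T2 and 56.9 in T3, with a shift of 1.20. In these 2 genes T2 was close to T3 and both diploid libraries were lower, so that the shift rested on the diploid libraries and T1. BRA02G0019935 (0.65) and BRA02G0019930 (0.64) completed the run. In BRA02G0019935 T2 was highest of all, at 60.4 against 57.1 in T1 and 49.4 in T3, and in BRA02G0019930 T1 alone was high, at 3.68. The monoploid libraries ranged from 18.2 to 38.2 in BRA02G0019939 and from 21.3 to 34.8 in BRA02G0019937, and overlapped the diploid ones.

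The following single genes were picked by fixed rules and are named by the identifiers of the deposited tables, which give each model's chromosome, strand, start and end, and no function. Among members with a mean TPM of at least 10 that lay above T2, D1 and D2 in both raised libraries, BRA02G0019632 (37315544 to 37317784) had the highest shift, 2.15. Its TPM was 16.8, 51.2 and 33.9 in M1, M2 and M3, 7.21 and 13.8 in D1 and D2, and 29.3, 24.6 and 109.8 in T1, T2 and T3. T3 was far above all other libraries, and T1 lay within the monoploid range.

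The next was BRA02G0020040 (34860734 to 34861779; shift 1.89), with 27.1, 4.78 and 7.33 in the monoploid, 5.69 and 3.61 in the diploid and 12.1, 8.24 and 31.2 in T1, T2 and T3. M1 stood near T3, and M2 and M3 near the diploid. BRA02G0019525 (37805124 to 37809752; shift 1.67) had 2.79, 1.01 and 2.64 in the monoploid, 7.27 and 9.44 in the diploid and 20.6, 8.22 and 30.1 in T1, T2 and T3. Here the monoploid was lowest, T2 was within the diploid range and T1 and T3 were highest.

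BRA02G0023249 (4249269 to 4250285; shift 1.38) had 7.95, 7.67 and 5.59 in the monoploid, 11.5 and 12.9 in the diploid and 22.8, 6.48 and 26.1 in T1, T2 and T3. T1 and T3 were close to each other and above all other libraries, and T2 was within the monoploid range.

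At the other end, BRA02G0022564 (8181218 to 8187073) had the lowest shift, -2.60. Its TPM was 295, 283 and 264 in the monoploid, 156 and 149 in the diploid, 43.8 in T1, 54.7 in T2 and 6.53 in T3. The groups did not overlap, and all 3 tetraploid libraries were low, T3 most of all.

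BRA02G0024048 (452585 to 453400; shift -1.34) had 13.3, 31.9 and 11.8 in the monoploid, 5.04 and 5.98 in the diploid and 1.88, 10.4 and 3.43 in T1, T2 and T3. BRA02G0019608 (37412114 to 37413565; shift -1.08) had 33.2, 62.6 and 33.9 in the monoploid, 9.62 and 6.64 in the diploid and 2.58, 6.28 and 4.25 in T1, T2 and T3. In both genes the monoploid was highest and T1 lowest. BRA02G0020219 (33756774 to 33757308; shift -0.66) was instead highest in the diploid, at 23.7 and 32.4, with 7.70, 16.2 and 11.1 in the monoploid and 13.2, 17.0 and 15.0 in T1, T2 and T3. Its 3 tetraploid libraries were close to each other, so that the low shift came from high diploid values.

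**Figure D5:**
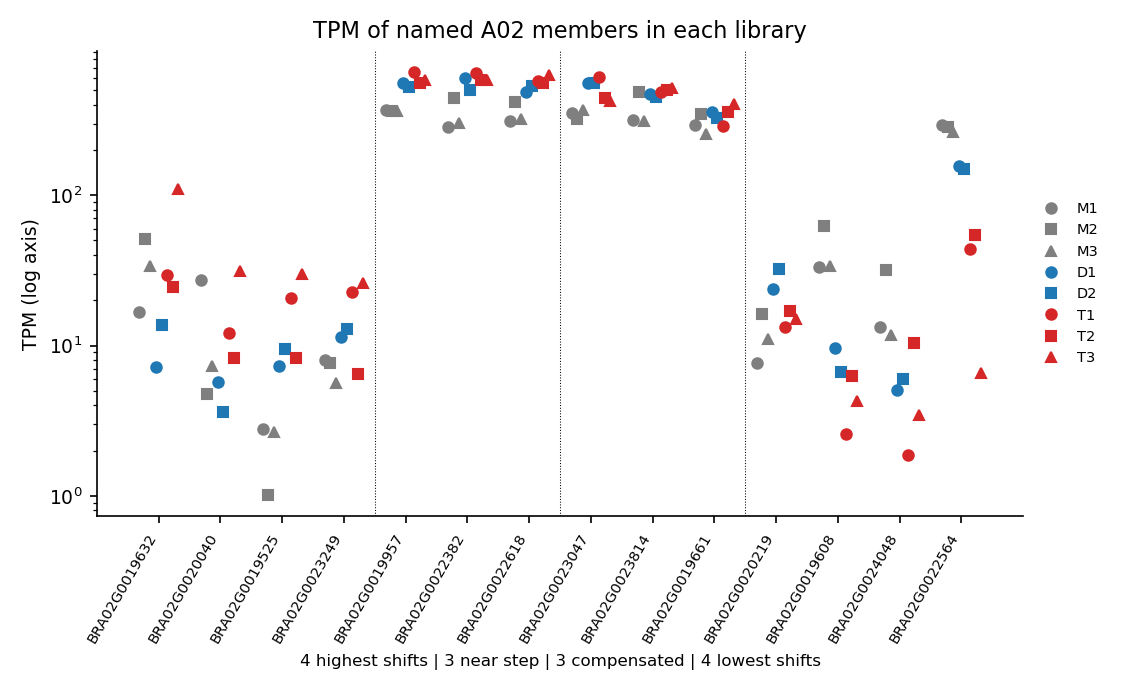
TPM on a log axis of 14 members picked by rule (x axis), with 1 point per library: monoploid grey, diploid blue, tetraploid red, replicates 1, 2 and 3 as circles, squares and triangles. The tetraploid libraries are far apart in BRA02G0019632 (29.3, 24.6 and 109.8 in T1, T2 and T3) and closer in BRA02G0019957 (661, 557 and 580).

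Abundant members near the step showed how small the step is beside the spread of libraries. BRA02G0019957 (35416776 to 35417853), the most abundant member with a mean of 497 TPM, had 370, 364 and 366 in the monoploid, 557 and 525 in the diploid and 661, 557 and 580 in T1, T2 and T3. T1 and T3 were highest, T3 only just above T2, and after centring the shift was 0.26. BRA02G0022382 (9349635 to 9350401; shift 0.21) had 602 and 498 in the diploid and 653, 588 and 581 in T1, T2 and T3, where T3 lay within the range of D1, D2 and T2 before centring. In BRA02G0022618 (7834112 to 7835110; shift 0.28) the TPM was 490 and 537 in the diploid and 580, 560 and 635 in T1, T2 and T3, and both raised libraries were above the other 3.

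Of the 3 most abundant compensated members, 2 had T1 and T3 on opposite sides of the other libraries. BRA02G0023047 (5325016 to 5325548; shift 0.06) had 556 and 560 TPM in the diploid and 616, 445 and 421 in T1, T2 and T3, so that T1 was highest and T3 lowest of these 5. BRA02G0019661 (37128080 to 37128685; shift 0.06) had 355 and 324 in the diploid and 291, 359 and 402 in T1, T2 and T3, the opposite order. The other, BRA02G0023814 (1599172 to 1600549; shift 0.16), was even, with 474 and 453 in the diploid and 489, 499 and 517 in T1, T2 and T3.

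Of the abundant members beyond the step, BRA02G0023567 (2693747 to 2700191) had a shift of 1.18 that came from T3. Its TPM was 995, 831 and 1009 in the monoploid, 92.2 and 220.8 in the diploid and 110, 56.1 and 454 in T1, T2 and T3. T1 lay between the diploid libraries, and its centred value was 0.15 above the mean of T2, D1 and D2 against 2.2 in T3.

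BRA02G0024123 (132530 to 133564; shift 0.55) and BRA02G0021069 (26808362 to 26810082; shift 0.53) were raised in both libraries. The former had 271 and 323 in the diploid and 363, 223 and 387 in T1, T2 and T3, below the monoploid values of 595, 494 and 539. The latter had 310 and 340 in the diploid and 456, 290 and 402 in T1, T2 and T3, above the monoploid values of 223, 281 and 223. The first member along the chromosome, BRA02G0024142 (9999 to 11405), had a shift of -0.02 and the last, BRA02G0019435 (38355590 to 38356216), of 0.32.

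The comparison of diploid and monoploid leaves out T1 and T3, but D1 and D2 were among the libraries by which the chromosome was chosen. With limma on log2(TPM + 1), fitted to 25652 genes and adjusted over all of them, 124 members (6.20%) passed an adjusted p of 0.05 and a log2 fold change of at least 1, against 10.2% of all genes tested. Among genes of all chromosomes that passed the filter of the members, 7.66% were called. Of the 124 members 72 (3.6%) were higher in the diploid, against 4.87% of all genes tested and 4.23% of genes that passed the members' filter. Lower were 52 (2.60%), against 5.36% and 3.42%. Without D1 the median difference was 0.27 over members and 0.265 over all genes tested. When the libraries were centred on the reference chromosomes, 23 members (1.15%) were called higher, beside 1.84% of the reference genes, and 97 (4.85%) lower, beside 5.51%. That scaling moved the median over members from 0.25 to -0.003 on the log2 scale, and the median over all genes tested from 0.25 to 0.002. Over the reference genes the median was 0.25 as deposited. Rescaling the libraries by median ratios also gave 23 higher (1.15%, beside 1.85% of the reference genes) and 97 lower (4.85%, beside 5.5%).

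The largest rises were in BRA02G0024079 and BRA02G0023136. In BRA02G0024079 (340951 to 342273) the TPM was 2.32, 2.33 and 4.78 in the monoploid, 68.1 and 90.0 in the diploid and 110.3, 102.3 and 112.5 in T1, T2 and T3. The monoploid was lowest without overlap, and the diploid was higher by 4.31 (SE 0.24; adjusted p = 8.1e-06, limma). In BRA02G0023136 (4786682 to 4790228) the monoploid had 18.5, 13.4 and 18.0, the diploid 116 and 172 and T1, T2 and T3 107.6, 120.7 and 153.6. It was higher in the diploid by 3.03 (SE 0.22; adjusted p = 4.4e-05, limma), and T1 was below the diploid libraries, with a shift of 0.02. The shift of BRA02G0024079 was 0.46, and against T2 alone the shifts of both genes were 0.15 and 0.12.

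The largest falls were in BRA02G0023611 and BRA02G0023473. BRA02G0023611 (2518729 to 2520181) had 258, 156 and 152 TPM in the monoploid, 1.49 and 3.53 in the diploid and 1.27, 1.22 and 8.84 in T1, T2 and T3. The diploid differed by -5.77 (SE 0.59; adjusted p = 0.00036, limma), and T3 was highest of the 5 other libraries. BRA02G0023473 (3123049 to 3125392) had 201, 116 and 166 in the monoploid, 5.06 and 21.3 in the diploid and 5.99, 3.91 and 3.87 in T1, T2 and T3. The diploid differed by -3.76 (SE 0.47; adjusted p = 0.00093, limma), and D2 was highest of the 5. In both genes the fall from the monoploid exceeded the reference step many times over.

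Between tetraploid and monoploid 188 members (9.40%) were called by limma, against 11.6% of all genes tested and 8.76% of genes that passed the filter of the members. Higher in the tetraploid were 136 members (6.80%), against 5.56% of all genes tested and 4.24% of the reference genes. Lower were 52 (2.60%), against 6.01% and 4.34%. After centring on the reference chromosomes 86 members were higher (4.30%, beside 2.74%) and 80 lower (4%, beside 5.89%). Median-ratio rescaling gave 75 (3.75%, beside 2.57%) and 83 (4.15%, beside 6.12%). The median difference over members was 0.36 as deposited and 0.19 after centring, where that of all genes tested was 0.20 and 0.03. T1 and T3 make up most of the tetraploid group, so this imbalance is not independent of the contrast that chose the chromosome. This comparison and that of diploid and monoploid share the monoploid libraries.

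Between tetraploid and diploid no member was called by limma, against 0.0273% of all genes tested and none that passed the filter of the members. An unadjusted p under 0.05 was reached by 112 members (5.60%), close to the 5.26% of the reference genes and the 5.41% of all genes tested. Higher in the tetraploid were 95 of them (4.75%, beside 1.34% of the reference genes) and lower 17 (0.85%, beside 3.92%), a split that rests on T1 and T3, whose values chose the chromosome. Limma without a trend on mean expression called 1 member, against 0.0429% of all genes tested.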

How the data were processed

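RNA-seq tables of 3 monoploid, 2 diploid and 3 tetraploid libraries were used. Before deposition the authors processed the reads with fastp and HISAT2, and StringTie gave the values per gene model (version 1.3.5 in the submitters' processing notes). The assembly is not given in the sources used here. The deposited TPM values sum to 1000000 per library. The deposited coverage and FPKM values served only to estimate depth, 5.86 to 8.06 Gb of aligned bases per library. No counts per gene were used, so no counting interval is given. The D2 table lists its genes in another order and its FPKM values sum higher than in the 7 others, whose part in the results was not tested. In the table of M1, 3 further columns were not used. None of the gene identifiers matched the RefSeq table of assembly CAAS_Brap_v3.01 (0 matches), so marker and pathway lists could not be read and no gene names or sequences are given. ChIP-seq and ATAC-seq were not analysed here.

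Each library was centred on the median, over reference genes, of log2 TPM minus the gene's mean in T2, D1 and D2. Limma 3.58.1 in R 4.3.3 was fitted to log2(TPM + 1) of genes with TPM of at least 1 in 2 libraries, with 3 ploidy levels, a trend and Benjamini-Hochberg adjustment, and was tested on simulated data. Genes named are the 4 highest and 4 lowest shifts outside the range of the other 3 libraries (mean TPM of at least 10), the 3 most abundant of each class but the lower, the first and last, those at the limits, and the 2 largest rises and falls between diploid and monoploid. The 2 runs of neighbours were chosen after their values were seen. Members, classes and lists were chosen with earlier results of these data known.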

Additional observations from a re-analysis of the deposited data

How the results depend on the processing

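The median shift of 0.32 was 0.29 on log2(TPM + 1), 0.24 on TPM as deposited without centring, and 0.31 when centred on all chromosomes other than A02; leaving out 1 library at a time gave 0.3107 to 0.3246, the lowest without T1. With a band of 0.0805 instead of 0.161, 673 members were near the step; leaving out 1 library gave 939 to 1198. On TPM as deposited without centring, T1 and T3 both lay above T2, D1 and D2 in 896 members instead of 1160. The correlation of single differences was 0.0321 under the exchanged pairing. Diploid against monoploid, 75 members were called without a filter on low values, 81 at an adjusted p of 0.01, and 58 to 156 when 1 library was left out, the lowest without D1. Tetraploid against diploid, 1 member was called by limma without a trend and 0 to 3 when 1 library was left out. Of all genes tested, 3.94% were called diploid against monoploid without the filter and 7.53% at an adjusted p of 0.01. The main fit called 10.2%. Without M2, where 156 members were called, it was 11.4%. The share of all genes was also lowest without D1, so members and all genes moved together in these settings. Tetraploid against diploid, the highest count of members came without D1, where the share of all genes was also highest. With the replicate block 104 members were called diploid against monoploid, 189 tetraploid against monoploid and 0 tetraploid against diploid. Without it these were 124, 188 and 0. Of all genes 9.19%, 11.6% and 0.0273% were called with the block. The labels do not say that a number marks a shared plant, batch or day. The libraries were therefore taken to share only a number. Deviations of same-numbered monoploid and tetraploid libraries had correlations of 0.217, 0.181 and 0.082, where other numbers gave -0.188 to -0.015. Among these, each correlated best with its own number, a hint from the data and not from the design. Pairs with the diploid give no separate readings for D1 and D2, whose deviations from their mean are equal and opposite. A value for D1 fixes that for D2 with the sign reversed, so no order is read from these pairs. D1 and T1 gave 0.031 and D2 and T2 -0.224, beside 0.224 for D1 and T2 and 0.268 for D2 and T3. M1 and D1 gave -0.042 and M2 and D2 -0.084, beside 0.042 for M1 and D2 and 0.084 for M2 and D1. When an arm was left with 1 library, it was assumed to vary like the other groups. Among the 30 named members, 8 changed the sign of their shift in some alternative: BRA02G0023047, BRA02G0019661, BRA02G0023136, BRA02G0024142, BRA02G0022880, BRA02G0020046, BRA02G0023473 and BRA02G0023611. The causes were not tested.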

Other observations

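A02 genes outside the filter were read on the same scale. The 539 that were above 0 in all libraries but under 1 TPM in some had a median shift of 0.34, with an interquartile range of 0.91, beside a median of -0.01 and a range of 0.85 in 3673 such genes of the reference chromosomes. T1 and T3 both lay above T2, D1 and D2 in 130 of them (24.1%), and in 389 of those reference genes (10.6%).

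The 21 genes with a mean above 500 TPM had a median shift of 0.27, from -0.75 to 0.78. In 14 of them (66.7%) T1 and T3 both lay above the 3 other libraries, beside 58.0% of the members. The share among such genes of the reference chromosomes was not read. This order uses the contrast that chose the chromosome and is not evidence for it. BRA02G0024091 (288812 to 289215) had 760.0 and 744.5 TPM in the diploid and 1154 in T1, 832 in T2 and 1380 in T3. T1 and T3 stood above all monoploid, diploid and tetraploid libraries, the monoploid being at 999.5, 889 and 999.2. BRA02G0022301 (10050214 to 10052757) had 1465 and 1740 in the diploid and 932, 813 and 555 in T1, T2 and T3, so that all 3 tetraploid libraries were below the diploid. Both genes were chosen after their values were seen, as the ends of the range.

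Read in single libraries, the genes of A09 in T1 (3126) and of A04 in T2 (1416) each had a median of 0.32 against the 4 other libraries of D1, D2, T1, T2 and T3, with an SD over genes of 0.30.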
